A study of Homo sapiens with 4 samples.

Results

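The genes of the proteasome were examined in ES2 cells, an established human ovarian cancer cell line, after 12 h with the LIFR inhibitor EC359 at 10 nM or with vehicle (0.1% DMSO). Members were taken by name: gene symbols that start with PSM, followed by a letter from A to G and a number, leaving out PSMB8 and PSMB9, with at least 10 raw counts in each library. Of 23228 gene symbols, 46 had such a name and 44 reached the minimum. PSMA8, with 0 counts in each library, and PSMB11, with 0 to 2, did not. Each treatment had 2 libraries of polyadenylated RNA, which the authors call biologically independent samples, with 25572494 to 31707553 counts on genes per library. All libraries came from 1 cell line at 1 dose and 1 time, and LIFR was inhibited with a compound and not deleted. Markers of the line were checked, and KRT7 (7423 to 8124 normalized counts), KRT18 (7006 to 7759) and VIM (135415 to 157710) were high, PAX8 (26.7 to 38.3) and WT1 (84.5 to 117) were low, and EPCAM and CDH1 did not exceed 2.22. The leukocyte marker PTPRC and the endothelial marker PECAM1 did not exceed 1.87. Normalized counts are counts at the mean library size.

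The proteasome is the large protease that degrades proteins tagged with ubiquitin. Its core particle is a barrel of alpha rings, which form the gate, around beta rings, in which the subunits encoded by PSMB5, PSMB6 and PSMB7 cut the substrate. A regulatory cap with a ring of ATPases unfolds the substrate, and the non-ATPase subunits of the cap bind and remove ubiquitin. Other caps (PSME1 to PSME4) and an inhibitor (PSMF1) can replace or block this particle, and dedicated chaperones assemble the core and the cap. The genes of the subunits are known to be induced together by NFE2L1 (also called NRF1) when the activity of the proteasome is too low, through sites of the antioxidant response type in their promoters. CCAAT boxes, bound by NF-Y, are also known in promoters of proteasome genes.

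RefSeq promoter sequences (GRCh38.p14) were matched by symbol for 38 of the 44 genes. The 250 bases before the start were searched on both strands for TGACNNNGC (the core of the antioxidant response element), CCAAT and CCGGAAG (a core bound by ETS factors), which do not overlap in what they spell. TGACNNNGC was found for 10 of the 38 genes (26.3%) and in 11% of all 27305 promoters. CCAAT was found for 16 (42.1%) and in 33% of all promoters, and CCGGAAG for 9 (23.7%) and in 8.82%. Stretches are shown for the 6 genes with the smallest p-values and for PSMD12, which differed the other way. They are written from 5′ to 3′ on the strand of the gene, capitals mark a match of a motif on either strand, and where the 250 bases held no match the 60 bases next to the start are given.
PSMA5 (chr1:109426486-109426543, minus strand): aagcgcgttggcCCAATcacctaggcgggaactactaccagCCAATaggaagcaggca
PSMB3 (chr17:38752625-38752740, plus strand): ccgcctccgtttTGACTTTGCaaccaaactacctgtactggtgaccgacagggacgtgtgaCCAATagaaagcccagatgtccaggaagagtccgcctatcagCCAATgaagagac
PSMB4 (chr1:151399513-151399572, plus strand): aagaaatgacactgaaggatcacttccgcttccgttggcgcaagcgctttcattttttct
PSMD2 (chr3:184299181-184299240, plus strand): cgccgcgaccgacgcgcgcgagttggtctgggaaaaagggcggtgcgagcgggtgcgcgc
PSMD13 (chr11:236952-236975, plus strand): cgccgctcggcgCCGGAAGtgagt
PSME4 (chr2:53971007-53971085, minus strand): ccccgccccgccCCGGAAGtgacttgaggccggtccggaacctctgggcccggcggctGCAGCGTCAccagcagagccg
PSMD12 (chr17:67366578-67366697, minus strand): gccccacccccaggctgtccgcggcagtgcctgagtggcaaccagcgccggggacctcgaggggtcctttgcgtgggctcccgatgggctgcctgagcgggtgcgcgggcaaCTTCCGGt
Of the 6 genes, TGACNNNGC was found for PSMB3 and PSME4, CCAAT for PSMA5 and PSMB3, and CCGGAAG for PSMD13 and PSME4. Each motif was thus found for 33.3% of the 6 genes. Among the other 32 proteasome genes with a promoter sequence the shares were 25%, 43.8% and 21.9%, and the difference was not tested. PSMB4 and PSMD2 held none of the motifs in this window. A match is a match of letters and was not tested as a bound site. PSMD12 held TGACNNNGC too, starting 165 bases before the start and outside the stretch shown.

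To ask whether EC359 changed the RNA of the proteasome, treatments were compared across all 12706 genes tested with the quasi-likelihood test of edgeR, in which the standard error (SE) and the adjusted p rest on all genes. A gene counted as called where its Benjamini-Hochberg adjusted p was under 0.01. By this test no proteasome gene was called in either direction, while 1.09% of all genes tested were called, 0.795% lower and 0.299% higher. At an unadjusted p under 0.05 of the same test, 17 proteasome genes were lower and 2 were higher, beside 11% and 10.7% of all genes tested. DESeq2 called 2 proteasome genes lower, beside 2.87% of all genes to which it gave an adjusted p, and limma voom called 1 lower, beside 1.15% of all genes tested. At an adjusted p under 0.05, 6 proteasome genes were lower with EC359 and 0 higher, or 6 of 44 against 2.64% of all genes tested that were lower at this threshold and 1.68% that were higher. These are PSMA5, PSMB3, PSMB4, PSMD2, PSMD13 and PSME4. With 1 library left out in turn, the median log2 fold change of the 44 genes ran from -0.079 to -0.039. In such a fit 1 treatment rests on 1 library. Which genes passed a threshold depended on the library left out, among the 44 and among all genes tested. Of all 44 genes, 31 had a lower mean with EC359 and 13 a higher mean, while 49% of all genes tested had a lower mean. The median log2 fold change was -0.045, beside 0.0029 over all genes tested. Of these 44 genes, 40 had at least 1000 normalized counts, and among the 5972 genes tested at that level 4.87% were lower and 2.43% were higher at an adjusted p under 0.05. At an unadjusted p under 0.05 the shares of these genes were 17.1% and 12.2%.

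The largest of these differences were small. Log2 fold changes ran from -0.21 (PSMB3) to 0.11 (PSMD12), apart from PSMC1, which is set out with the ATPases. In 20 genes both EC359 libraries lay below both vehicle libraries, in 4 they lay above, and in 20 the treatments overlapped. Among all genes tested, 25.4% had both EC359 libraries below and 26.1% above. Among genes with at least 1000 normalized counts these shares were 31.7% and 25.6%. As a share of all counts on genes, the 44 genes held 0.806% and 0.803% in the libraries of vehicle, against 0.781% and 0.776% in those of EC359. The 95% Wilson intervals, which cover counting error only, ran from 0.8% to 0.81% in the vehicle libraries and from 0.772% to 0.784% in the EC359 libraries. Both EC359 libraries thus held a smaller share than both vehicle libraries. Whether EC359 changed the total RNA per cell cannot be told from such shares.

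**Figure D1:**
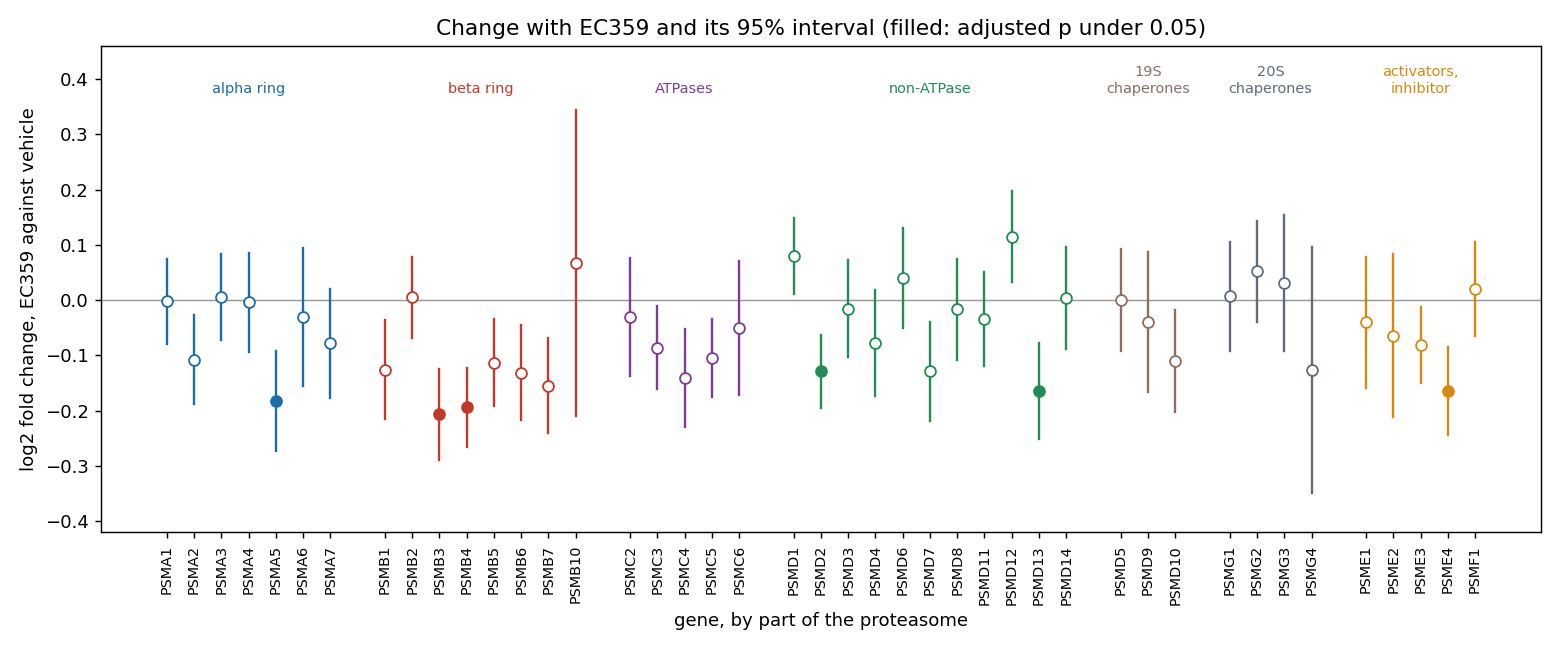
Log2 fold change of 43 proteasome genes with EC359 against vehicle, with the 95% interval from edgeR as a line, grouped by part of the proteasome; PSMC1 is not drawn. The 6 filled points are the genes with an adjusted p under 0.05, and all of them lie below 0.

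The beta ring held the genes with the lowest p-values. Of its 8 genes measured, 6 had both EC359 libraries below both vehicle libraries, and the median log2 fold change of the 8 was -0.13. Both EC359 libraries lay below in 25.4% of all genes tested, and in 31.7% of those with at least 1000 normalized counts. PSMB4, a beta subunit without a catalytic site, lies on chromosome 1 (GRCh37, bases 151372036 to 151374413). It had 7873 and 7945 normalized counts in the vehicle libraries, and 6941 and 6891 in the EC359 libraries. The EC359 libraries were close to each other and below the vehicle libraries, with a log2 fold change of -0.19 (SE 0.032, edgeR adjusted p = 0.0105), a change of -12.6%. Over the 10 alternatives fitted to 4 libraries, its adjusted p ran from 4.76e-07 to 0.0409. The low end came from the fit with a replicate block, by which 12.1% of all genes tested were called. No label ties a replicate number to a batch. PSMB3, another beta subunit without a catalytic site, lies on chromosome 17 (GRCh37, bases 36908994 to 36920478). It had 5083 and 5282 normalized counts with vehicle, and 4531 and 4450.3 with EC359. Its log2 fold change of -0.21 was the lowest of the 44 genes (SE 0.037, edgeR adjusted p = 0.0139). Over the 10 alternatives its adjusted p ran from 2.87e-06, again with the replicate block, to 0.0567.

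The catalytic genes of the beta ring lay in the same direction with smaller differences. PSMB5, which encodes the chymotrypsin-like subunit bound by clinical proteasome inhibitors, had 5350.4 and 5282 normalized counts with vehicle and 4991 and 4839.7 with EC359. PSMB6, which encodes the caspase-like subunit, had 4358 and 4488 with vehicle and 3962 and 4115 with EC359. PSMB7, which encodes the trypsin-like subunit, had 4981 and 5219.8 with vehicle and 4511 and 4655 with EC359. For each of them the treatments did not overlap, and none passed an adjusted p of 0.05. Log2 fold changes were -0.11 for PSMB5, -0.13 for PSMB6 and -0.15 for PSMB7 (standard errors 0.036, 0.039 and 0.039), and edgeR gave adjusted p = 0.0999, 0.0825 and 0.0526. These genes lie on GRCh37 at 23485752 to 23504439 of chromosome 14 (PSMB5), 4699439 to 4701797 of chromosome 17 (PSMB6) and 127115744 to 127177723 of chromosome 9 (PSMB7). PSMB1 had a log2 fold change of -0.13 (adjusted p = 0.106). PSMB2 differed from these genes in its values, with 6783 and 6816 normalized counts with vehicle and 6881 and 6766 with EC359, a log2 fold change of 0.0051 with a 95% interval from -0.068 to 0.078.

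PSMB10 encodes the inducible subunit that takes the place of PSMB7 in the immunoproteasome. It lies on chromosome 16 (GRCh37, bases 67968409 to 67970767) and was the lowest of the beta ring genes, with 271 and 359 normalized counts with vehicle and 323 and 338 with EC359. Both EC359 values lay between the vehicle values. The log2 fold change of 0.067 had a 95% interval from -0.21 to 0.34 (edgeR adjusted p = 0.805). This interval included the log2 fold change of PSMB3, and the reason for its width was not tested. For each 100 counts of PSMB7 there were 5.44 and 6.89 counts of PSMB10 with vehicle and 7.16 and 7.26 with EC359. The ratio was higher in both EC359 libraries than in both vehicle libraries, and the gap between the vehicle libraries was wider than the gap between vehicle replicate 2 and EC359 replicate 1.

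Of the 7 genes of the alpha ring measured, 6 had a lower mean with EC359 and 1 a higher mean. Of these 7, 2 had both EC359 libraries below both vehicle libraries and 5 overlapped. Both EC359 libraries lay below in 25.4% of all genes tested, and in 31.7% of those with at least 1000 normalized counts. The median log2 fold change of the 7 was -0.030. PSMA5 lies on chromosome 1 (GRCh37, bases 109941664 to 109969070). It had 6601 and 6362.5 normalized counts with vehicle, and 5891 and 5531 with EC359. The treatments did not overlap, although the EC359 libraries stood further apart than the vehicle libraries, and the log2 fold change was -0.18 (SE 0.040, edgeR adjusted p = 0.0329). Over the 10 alternatives its adjusted p ran from 1.11e-16 to 0.0599. The low end came from the replicate block with length and GC trends removed, by which 14.5% of all genes tested were called. PSMA2 was also lower in both EC359 libraries (log2 fold change -0.11, adjusted p = 0.116). PSMA1, PSMA3 and PSMA4 had log2 fold changes between -0.0042 and 0.0063, with standard errors from 0.034 to 0.041. PSMA7 had the highest counts of the alpha ring, with 8990.4 and 9744 normalized counts with vehicle and 8610.3 and 9142 with EC359, and its treatments overlapped. PSMA6 (log2 fold change -0.030) shares 27.6% of the 50-base windows of its transcript with other places in the genome, and its counts are uncertain.

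**Figure D2:**
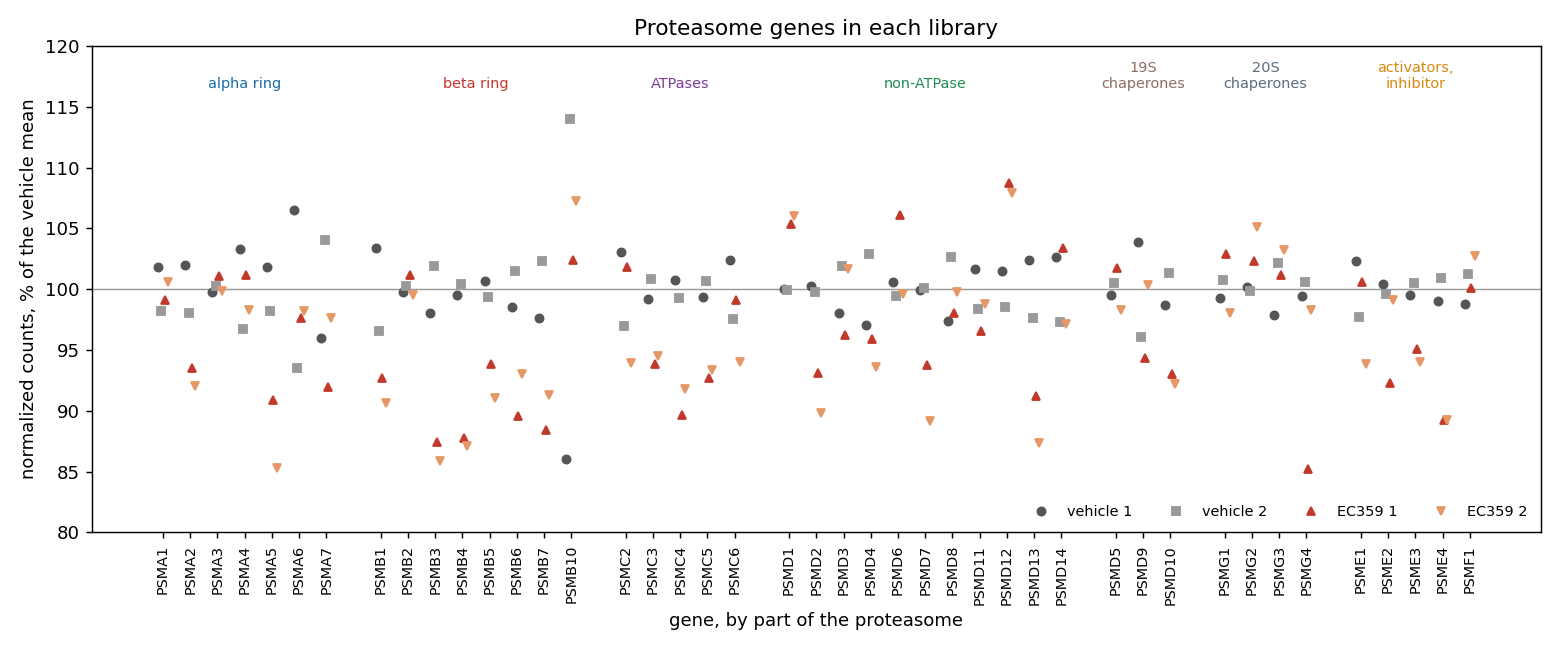
Normalized counts of 43 proteasome genes in each of the 4 libraries, as a percent of the mean of the vehicle libraries of the same gene; PSMC1 is not drawn. In PSMB3, PSMB4, PSME4 and PSMA5 both EC359 libraries lie below both vehicle libraries, in PSMD1 and PSMD12 both lie above, and in PSMB10 the vehicle libraries lie on either side of the EC359 libraries.

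The ATPases of the cap thread the substrate into the core. Of the 6 genes, 3 had both EC359 libraries below both vehicle libraries, and the median log2 fold change was -0.068. Both EC359 libraries lay below in 25.4% of all genes tested, and in 31.7% of those with at least 1000 normalized counts. PSMC4 had 3313 and 3265 normalized counts with vehicle and 2949.7 and 3019 with EC359 (log2 fold change -0.14, SE 0.040, edgeR adjusted p = 0.0754). PSMC5 and PSMC3 had log2 fold changes of -0.11 and -0.086 (adjusted p = 0.0904 and 0.173). In PSMC5, 13.7% of the transcript overlaps exons of FTSJ3 on the other strand. PSMC2 and PSMC6 overlapped between treatments. In PSMC6, 30.8% of the windows of the transcript and 47.3% of those within the coding part occur elsewhere in the genome, and its counts are uncertain.

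PSMC1 had few counts. There were 14 and 19 raw counts with vehicle and 30 and 24 with EC359, while the other 5 ATPase genes had between 1530.4 and 8427 normalized counts in each library. Of the 50-base windows that lie within the coding part of PSMC1, 98.7% also occur at other places in the genome, and 83.2% of its annotated transcript overlaps exons of a gene on the other strand. Reads with several alignments or on exons of several genes were left out of the deposited counts. PSMC1 lies on chromosome 14 (GRCh37, bases 90722871 to 90741773). Its log2 fold change of 0.42 had a 95% interval from -0.30 to 1.13 (edgeR adjusted p = 0.493), the largest absolute value of the 44 genes. Without PSMC1 the median log2 fold change of the proteasome genes was -0.051.

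The 11 non-ATPase genes of the cap held values of both signs. PSMD2, which encodes the large scaffold that docks ubiquitin receptors, was the gene with the most counts of the 44, with 36108 and 35918 normalized counts with vehicle and 33521 and 32354 with EC359. The treatments did not overlap, and the log2 fold change was -0.13 (SE 0.030, edgeR adjusted p = 0.0388). Over the 10 alternatives, which include the fits with a replicate block, its adjusted p ran from 6.47e-12 to 0.0635. PSMD2 lies on chromosome 3 (GRCh37, bases 184016986 to 184026838), and 11.3% of its windows occur elsewhere in the genome. It held 15.7% of the counts on proteasome genes in each vehicle library and 15.3% and 14.9% in the EC359 libraries. PSMD13, a lid subunit on chromosome 11 (GRCh37, bases 236966 to 252984), had 6071 and 5785 normalized counts with vehicle and 5405 and 5176 with EC359. Its log2 fold change was -0.16 (SE 0.039, edgeR adjusted p = 0.0449). Over the 10 alternatives its adjusted p ran from 3.07e-05, with the replicate block, to 0.0936. PSMD7, the partner of the deubiquitinase PSMD14 in the lid, had a log2 fold change of -0.13 (adjusted p = 0.0977). PSMD14 itself had 6577 and 6235 normalized counts with vehicle and 6620.2 and 6224 with EC359, with a log2 fold change of 0.0039 and a 95% interval from -0.089 to 0.097.

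PSMD12 and PSMD1 lay in the other direction. PSMD12, a lid subunit on chromosome 17 (GRCh37, bases 65334032 to 65362721), had 3933 and 3819 normalized counts with vehicle and 4214 and 4181 with EC359. PSMD1, the other large scaffold of the cap, on chromosome 2 (GRCh37, bases 231921559 to 232037830), had 9358 and 9351 with vehicle and 9858 and 9918 with EC359. In both genes the EC359 libraries were above the vehicle libraries, and neither passed an adjusted p of 0.05. Log2 fold changes were 0.11 (SE 0.037, edgeR adjusted p = 0.108) for PSMD12 and 0.080 (SE 0.031, edgeR adjusted p = 0.168) for PSMD1. The other scaffold and lid genes PSMD3, PSMD6, PSMD8 and PSMD11 had log2 fold changes between -0.034 and 0.041 and overlapped between treatments. PSMD4, a ubiquitin receptor, had a log2 fold change of -0.078 (adjusted p = 0.334), and 23.4% of its windows occur elsewhere in the genome.

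The genes of the other caps, PSME1 to PSME4, each had a log2 fold change below 0, although PSME1 and PSME2 were above 0 with the length trend removed, and differences between them were not tested. PSME4, which encodes the large nuclear activator PA200, lies on chromosome 2 (GRCh37, bases 54091206 to 54198130). It had 4509 and 4594 normalized counts with vehicle and 4062 and 4061 with EC359. The EC359 libraries were nearly equal and below the vehicle libraries, with a log2 fold change of -0.16 (SE 0.036, edgeR adjusted p = 0.0314). Over the 10 alternatives its adjusted p ran from 1.55e-10, with the replicate block and length and GC trends removed, to 0.052. PSME3, the nuclear activator PA28 gamma, had 10214 and 10313 normalized counts with vehicle and 9758 and 9652 with EC359 (log2 fold change -0.081, SE 0.031, edgeR adjusted p = 0.167).

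PSME1 and PSME2 encode the activator that is known to be induced by interferon gamma. PSME1 had 1948 and 1862 normalized counts with vehicle and 1916 and 1788 with EC359, and its treatments overlapped (log2 fold change -0.040, 95% interval from -0.16 to 0.079). PSME2 had 832 and 826 with vehicle and 765 and 822 with EC359 (log2 fold change -0.064, 95% interval from -0.21 to 0.084), and 19.8% of its windows occur elsewhere in the genome. With the trend of counts against transcript length removed, the log2 fold changes of PSME1 and PSME2 were 0.011 and 0.00019. For each 100 counts of PSME3 there were 19.1 and 18.1 counts of PSME1 with vehicle and 19.6 and 18.5 with EC359, so that the ratio overlapped between treatments. The inhibitor PSMF1 had 3873 and 3972 normalized counts with vehicle and 3925 and 4031 with EC359 (log2 fold change 0.020, 95% interval from -0.065 to 0.10). On GRCh37 these genes lie on chromosome 14 from 24605372 to 24608176 (PSME1) and 24612571 to 24616779 (PSME2), on chromosome 17 from 40976402 to 40995777 (PSME3) and on chromosome 20 from 1093883 to 1170059 (PSMF1).

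Of the 7 genes of assembly chaperones, none had an adjusted p under 0.05. The chaperones of the core, PSMG1 to PSMG4, had a median log2 fold change of 0.019. PSMG4 had the fewest counts of them, with 335 and 338 normalized counts with vehicle and 287 and 331 with EC359 (log2 fold change -0.13, 95% interval from -0.35 to 0.096), and lies on chromosome 6 (GRCh37, bases 3231637 to 3303607). PSMG1, PSMG2 and PSMG3 had log2 fold changes between 0.0068 and 0.053. Among the chaperones of the cap, PSMD10 (gankyrin), on chromosome X (GRCh37, bases 107327437 to 107334779), had 2809 and 2882 normalized counts with vehicle and 2647 and 2624 with EC359. Its treatments did not overlap, with a log2 fold change of -0.11 (SE 0.042, edgeR adjusted p = 0.159). PSMD5 and PSMD9 overlapped between treatments, with log2 fold changes of 0.0007 and -0.039.

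Levels were compared between genes as counts per kb of the annotated transcript, scaled to library size as CPM (CPM per kb). With vehicle, PSMD2 was highest (438 ± 1.63 CPM per kb, SD, n = 2), followed by PSMA7 (345 ± 19.6) and PSMB4 (305 ± 1.95). The other 10 non-ATPase genes of the cap lay between 31.5 and 145. The catalytic genes PSMB5 (180.5 ± 1.64), PSMB6 (190.2 ± 3.94) and PSMB7 (184 ± 6.07) were close to each other, with PSMB5 and PSMB7 within the spread of the replicates, while PSMB10 was at 11.4 ± 2.26. Apart from PSMC1 (0.15), PSMB10 and PSMG4 (15.2 ± 0.12) were the lowest. With EC359, PSMD2 was at 401 ± 10.0, PSMA7 at 327 ± 13.8 and PSMB4 at 267 ± 1.37, in the same order. The annotated transcripts of PSMA4, PSMA5 and PSMB2 are 4378, 3815 and 4426 bases long for coding parts of 783, 723 and 603 bases, so their levels depend on how much of the transcript the cells make.

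**Figure D3:**
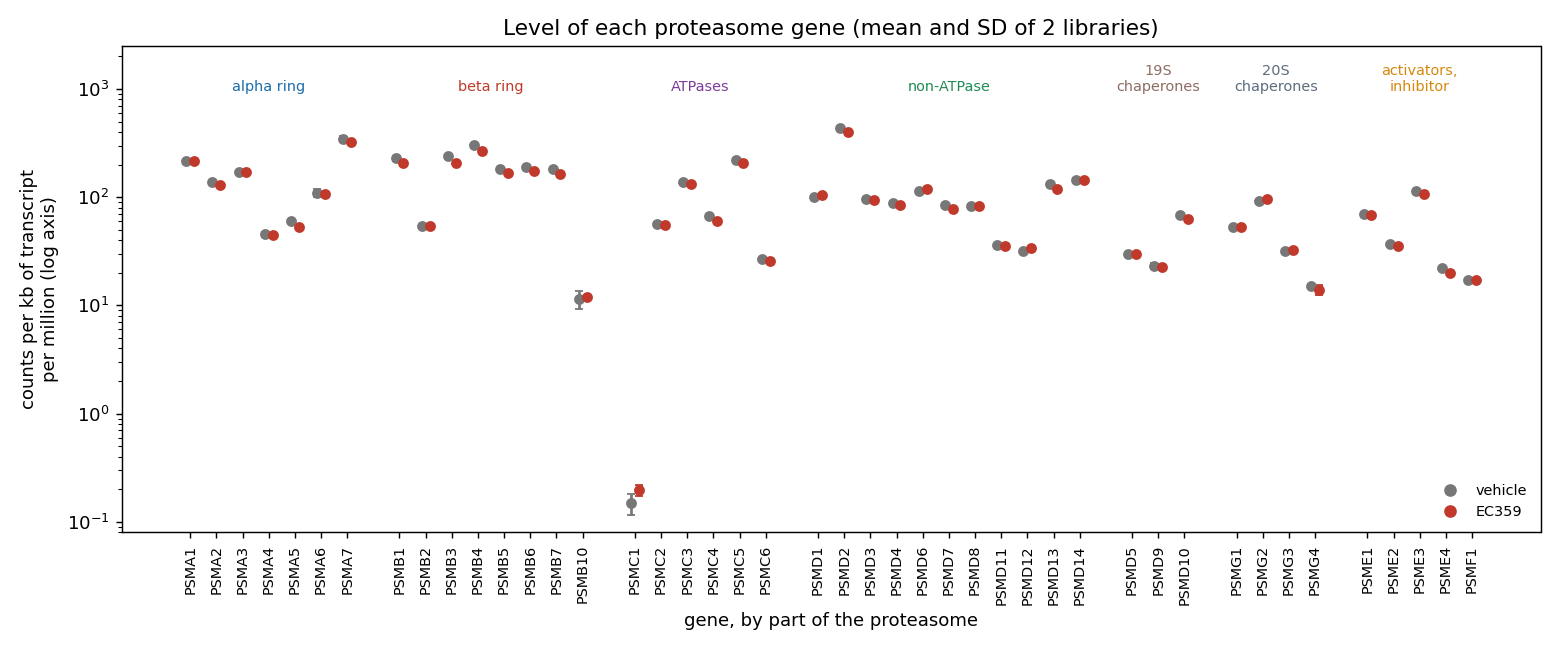
Level of each of the 44 proteasome genes as CPM per kb of transcript on a log axis, as the mean and SD of 2 libraries for each treatment. PSMD2 stands highest, PSMB10 lies well below the other beta ring genes, and PSMC1 lies below all others.

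The annotated transcripts of the 44 genes were short, with a median of 1529 bases beside 3347 for the 12219 genes tested that had a length. Across the 44 genes, the log2 fold change and transcript length had a Spearman correlation of 0.29, and without PSMC1 it was 0.25. Across all genes with a length it was 0.13. Genes share their libraries and are not independent replicates. With each library's trend against transcript length removed, the median log2 fold change of the 44 genes was -0.033, and with trends against length and GC content removed it was -0.026. PSMB3 then had a log2 fold change of -0.11 and PSMB4 of -0.11, nearer to 0 than before, and the catalytic genes PSMB5, PSMB6 and PSMB7 had -0.040, -0.043 and -0.083. PSMA5 (-0.22) and PSME4 (-0.20), whose annotated transcripts are 3815 and 7250 bases long, were further from 0 than before. With length and GC trends removed, PSMA5, PSMB4, PSMD2 and PSME4 passed an adjusted p of 0.01, as did 7.72% of all genes tested.

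**Figure D4:**
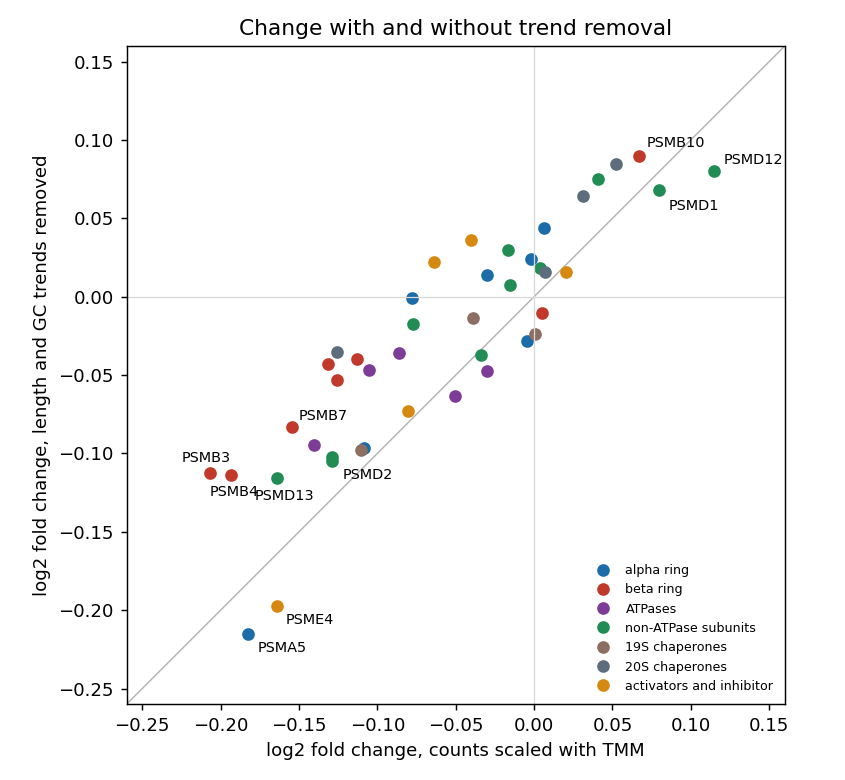
Log2 fold change of 43 proteasome genes with counts scaled by TMM alone (x axis) and with each library's trends against transcript length and GC content removed (y axis), coloured by part of the proteasome; the diagonal marks equal values. The beta ring genes PSMB3, PSMB4 and PSMB7 lie above the diagonal, nearer to 0 on the y axis, and PSMA5 and PSME4 lie below it.

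Other genes of the pathway were taken from lists by function. Of 28 partners of the proteasome, which hand over ubiquitin or substrates or bind the particle, 1 was called lower and 0 were called higher. Of all genes tested, 0.795% were called lower and 0.299% higher. The median log2 fold change of the partners was -0.028. UBA1, the main enzyme that activates ubiquitin, had 20549 and 21048 normalized counts with vehicle and 18002 and 18444 with EC359. It fell (log2 fold change -0.19, SE 0.031, edgeR adjusted p = 0.00874) and lies on chromosome X (GRCh37, bases 47050260 to 47074527). The call did not hold with total counts only (adjusted p = 0.0146), with no filter (0.0142), with at least 10 counts in each library (0.0103) or without EC359 replicate 1 or 2 (0.379 and 0.295). UBB, which encodes ubiquitin, was lower in both EC359 libraries than in both vehicle libraries (log2 fold change -0.16, edgeR adjusted p = 0.0169). Of the proteasome subunit SHFM1 and the assembly factor POMP, log2 fold changes were -0.13 and -0.11 (adjusted p = 0.152 and 0.123). The ubiquitin receptor ADRM1 had a log2 fold change of 0.091 (adjusted p = 0.346).

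Of 11 regulators of proteasome transcription, none was called by edgeR's quasi-likelihood test, and at an unadjusted p under 0.05 there were 3 lower and 1 higher. At this unadjusted threshold 11% of all genes tested were lower and 10.7% were higher. By DESeq2 and limma voom none was called. NFE2L1, on chromosome 17 (GRCh37, bases 46125691 to 46138907), had 7807 and 8074 normalized counts with vehicle and 7502 and 7260.04 with EC359 (log2 fold change -0.11, SE 0.035, edgeR adjusted p = 0.116). The treatments did not overlap. MAFF, a partner of NFE2L1 on DNA, on chromosome 22 (GRCh37, bases 38596774 to 38612514), had the lowest p of the list. Its normalized counts were 2142 and 2198 with vehicle and 1853 and 1974 with EC359, which did not overlap (log2 fold change -0.18, edgeR adjusted p = 0.0703). The related MAFG and MAFK had log2 fold changes of -0.011 and 0.069, and both overlapped between treatments. SYVN1, the ligase known to keep NFE2L1 low, on chromosome 11 (GRCh37, bases 64889252 to 64902003), had 1373 and 1489 with vehicle and 1605 and 1637 with EC359 (log2 fold change 0.18, edgeR adjusted p = 0.0986). NFYA, a subunit of the factor that binds CCAAT boxes, had a log2 fold change of -0.10 (edgeR adjusted p = 0.132). The other subunits NFYB and NFYC had -0.13 and -0.0047 (edgeR adjusted p = 0.273 and 0.975), and NFYC overlapped between treatments. The transcript does not show the processing and degradation of the NFE2L1 protein.

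A pair of other multi-subunit complexes was set beside the proteasome. The COP9 signalosome, whose architecture resembles the lid of the proteasome cap, held 9 genes with a median of -0.028 on the log2 scale and 1 called lower. The CCT chaperonin held 8 genes with a median of -0.045 and 1 called lower. Of all genes tested, 0.795% were called lower. COPS6, on chromosome 7 (GRCh37, bases 99686592 to 99689810), fell from 5656 and 5665 normalized counts with vehicle to 4765 and 4738 with EC359 (log2 fold change -0.25, SE 0.034, edgeR adjusted p = 0.00417). Without EC359 replicate 1 or 2 its adjusted p was 0.29 and 0.272. CCT7, on chromosome 2 (GRCh37, bases 73460548 to 73480149), fell too (log2 fold change -0.18, SE 0.029, edgeR adjusted p = 0.00776), although not with total counts only (0.0125), no filter (0.0138), the length trend removed (0.0161) or without EC359 replicate 1 or 2 (0.36 and 0.307). The proteasome genes were not tested against these complexes, and no difference between the complexes was tested.

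**Figure D5:**
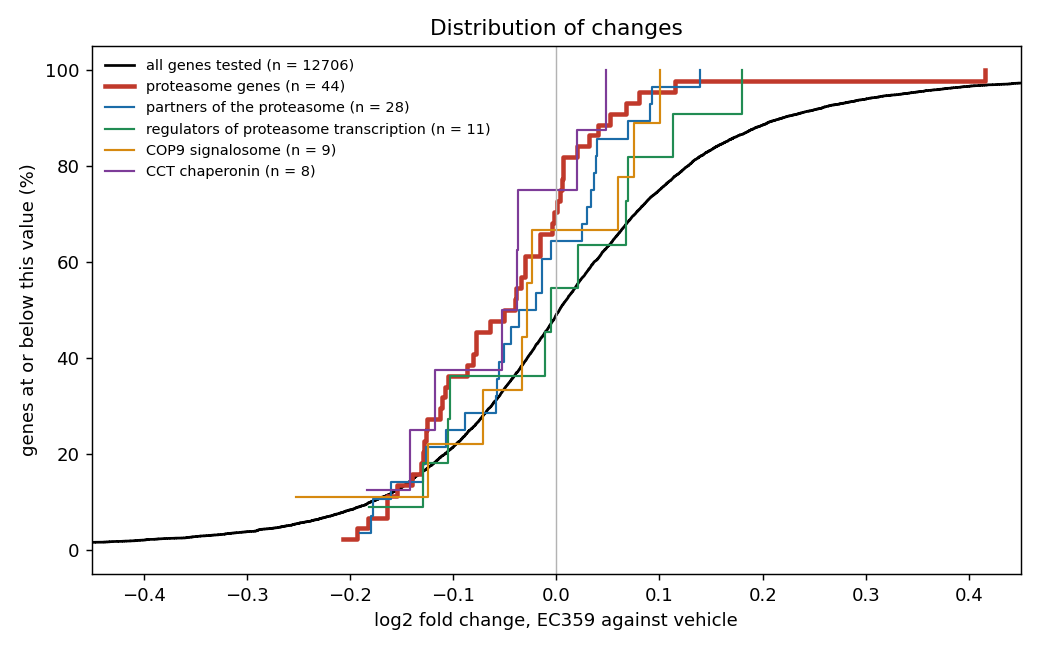
Share of genes at or below each log2 fold change with EC359 against vehicle, for all genes tested, the 44 proteasome genes and the 4 lists of related genes; values beyond the axis are not drawn. The curves of the proteasome genes and of the CCT chaperonin run to the left of that of all genes around 0, with medians of -0.045 for both.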

How the data were processed

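RNA from ES2 cells was measured in 2 vehicle and 2 EC359 libraries. Per the labels, the libraries were sequenced as single-end reads, processed with CASAVA 1.8.2 and TopHat2 2.0.8b on hg19 and counted with HTSeq. Each file deposited by the authors gives whole-number counts for gene symbols of NCBI RefSeq, in which reads that aligned to more than 1 place do not take part. The strand setting of the counting is not given in the sources used here. Summary rows of the counter entered neither the library sizes nor any fit. Reads outside genes were 10.9% to 12% and ambiguous reads 0.852% to 0.879% of uniquely aligned reads.

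Counts were filtered with filterByExpr (minimum count 10, minimum total 15), scaled with TMM factors and tested with the quasi-likelihood test of edgeR 4.0.16 in R 4.3.3, with no replicate block and Benjamini-Hochberg adjustment over 12706 genes. This filter is separate from the minimum of 10 counts that defined the members. SE is the size of the log2 fold change over the root of the F statistic, and 95% intervals use the degrees of freedom of the model. Between replicates, chi-square over its degrees of freedom was 3.78 (vehicle) and 2.69 (EC359), more than counting noise gives. Places, lengths and GC content came from GENCODE on GRCh37 (hg19 in UCSC's naming) with 1 transcript for each gene, and windows of 50 bases were searched for exact matches in that genome.

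The members and lists were chosen with earlier results of these data known. All members could be named; full statistics were given for the 3 with the lowest p in each direction, the catalytic, activator and inhibitor genes and the largest change in each part, and from the other lists for called genes or the 2 with the lowest p. The level of 1000 normalized counts and the alternatives for the related lists were added after seeing the data. Alternatives were RLE factors, total counts, DESeq2 1.42.0, voom of limma 3.58.1, other filters and thresholds, a replicate block, removal of length and GC trends, and leaving out each library. The fits were tested on simulated data. Values of some single genes are not reported here.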

Additional observations from a re-analysis of the deposited data

How the results depend on the processing

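The direction of the median of the proteasome genes did not change in any alternative run. It was -0.045 in the fit reported, -0.022 with total counts only (which moved the median of all genes from 0.0029 to 0.027), -0.033 with the length trend removed, -0.026 with length and GC trends removed, and -0.026 with a replicate block as well. With 1 library left out in turn it ran from -0.079 to -0.039. The number of proteasome genes called lower was 0, and it was 2 with DESeq2, 1 with limma voom, 4 with length and GC trends removed (beside 7.72% of all genes tested), 6 at an adjusted p under 0.05 and 17 at an unadjusted p under 0.05. With 1 library left out it ran from 0 to 6, while the number of all genes called ran from 0 (without EC359 replicate 1) to 539, or 4.13% (without vehicle replicate 2). The number called higher was 0, and it was 2 at an unadjusted p under 0.05, and 0 with each library left out. The libraries share replicate numbers, but no label ties a number to a batch; the deviations of vehicle replicate 1 and EC359 replicate 1 from their group means had a correlation of 0.10 over 12706 genes. With a replicate block, 14 proteasome genes were called lower and 1 higher, and 12.1% of all genes tested were called. With the block and length and GC trends removed together, 9 were called lower and 1 higher, beside 14.5% of all genes tested. At an adjusted p under 0.05, 2 were lower with no filter, 4 with total counts only or the length trend removed, and 8 with both trends removed. With the block 18 were lower and 2 higher at that threshold, and with block and trends 12 and 3. The shares of all genes at an adjusted p under 0.05 in these alternatives are not given here. Whether these counts of proteasome genes exceed the share of all genes therefore cannot be told. Calls over all genes at an adjusted p under 0.01 were 0.367% with no filter, 0.944% with total counts only and 1.09% with the length trend removed.

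The counts for the related lists stand beside shares of all genes called of 1.09% in the fit reported, 2.87% with DESeq2, 7.72% with length and GC trends removed, 12.1% with the replicate block and 14.5% with both. Of the partners of the proteasome, 1 gene was called, and 0 with total counts only, no filter or at least 10 counts in each library, 3 with DESeq2, 4 with length and GC trends removed, 5 with the replicate block and 8 with both; with 1 library left out the count ran from 0 to 4. Of the regulators, 0 were called, 2 with trends removed, 3 with the block and 4 with both. Of the COP9 genes, 1 was called, 2 with the block, 3 with the block and trends removed, and 0 to 1 with 1 library left out. Of the CCT genes, 1 was called, 0 with total counts only, no filter or the length trend removed, 2 with both trends removed, 3 with the block and 4 with block and trends; with 1 library left out the count ran from 0 to 2. Signs turned for genes near 0. PSMB10 ran from -0.12 (without vehicle replicate 1) to 0.28 with 1 library left out. PSME1 was at 0.011 with the length trend removed, 0.036 with both trends removed, 0.035 with the block as well, and from -0.092 to 0.0085 (without EC359 replicate 2) with 1 library left out. PSME2 was at 0.00020, 0.022 and 0.022 in the first 3 of these, and PSMF1 at -0.0011 with the length trend removed. The cause was not tested. With a library left out, the lone sample of its treatment is assumed to vary like the others. With 2 libraries for each treatment, a gene that was not called is not shown to be unchanged.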
